A study of Rattus norvegicus with 30 samples.

Results

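Cholesterol synthesis and its control by SREBP2 were followed through 28 genes in livers of 3 kinds of male animal with and without phenobarbital (PB). The genes were fixed by name, with earlier results of these data known. The list holds enzymes that build cholesterol and other isoprenoids from acetyl-CoA, the SREBP2 control genes, and genes that store or move sterol. They are 28 of 15170 genes with a symbol on the array. Of them, 27 had a probe, with 30 probes in all. Lbr had none, so its level is not analysed here. All 30 probes exceeded local background clearly on all 30 arrays, as marked in the scanner files, so no gene was lost to a filter on dim probes.

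The study compared rats of the outbred stock Crl:CD(SD), here SD rats, with chimeric mice, whose livers hold transplanted rat hepatocytes, and with CAR KO rats, which lack the nuclear receptor CAR, encoded by Nr1i3. Each kind of animal ate a diet with 0 ppm or 1000 ppm PB for 7 days, and 1 array was made per liver, with 7 chimeric mice and 4 rats of each rat model on each diet. Ages, the mouse strain of the host, the share of each chimeric liver made of rat cells and the extent of the CAR deletion are not given in the sources used here. The arrays are rat arrays, and the part of a chimeric signal that comes from mouse RNA was not tested.

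Liver cells make cholesterol from acetyl-CoA through mevalonate, farnesyl diphosphate, squalene and lanosterol. SREBP2, the product of Srebf2, is a membrane-bound transcription factor that raises most genes of this path when sterol in the endoplasmic reticulum is low. Scap carries SREBP2 to the Golgi for cleavage, and the Insig proteins hold the complex back when sterol is high. PB is a barbiturate, and CAR carries much of its known induction of cytochrome P450 genes in hepatocytes.

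A level is log2 of the scanner's processed signal minus the array's 75th percentile, so 1 unit is a doubling. Levels are compared between groups for the same probe, not between genes. Differences are log2 fold changes ± SE from limma, with Benjamini-Hochberg adjustment over all genes tested, and a gene rose or fell where the adjusted p was under 0.05. SDs are between arrays. Within each group, pairs of arrays correlated across genes at 0.975 to 0.994. The 75th percentile signal was at least 414 on each rat array and at most 318 on each chimeric array, so dim genes were measured less well in chimeric livers. Bulk RNA cannot tell fewer cells of a type from less RNA per cell.

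Libraries of the chimeric groups were less even than those of rats. On chimeric control 2, chimeric control 4 and chimeric PB 4, genes measured on all arrays lay above their group mean by medians of 0.17, 0.19 and 0.21, and results for chimeric mice are given with and without these 3 arrays. The arrays filled 4 slides. All SD arrays shared a slide and all CAR KO arrays shared another, with each diet in its own row, so row and diet cannot be told apart within a rat model. The 7 chimeric controls and chimeric PB 1 shared a slide, and chimeric PB 2 to 7 lay on another. The labels were checked on Cyp2b2, the cytochrome P450 gene that PB induces. Cyp2b2 rose by 4.03 ± 0.138 in SD rats and 5.81 ± 0.264 in chimeric mice (limma adjusted p = 7.64e-10 and 2.13e-09), and stood at -0.09 ± 0.138 in CAR KO rats. Nr1i3 itself did not separate the rat models (-0.05 ± 0.304 on control diet, CAR KO minus SD). Where its probe lies relative to the deletion is not given, so Nr1i3 checks nothing.

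Promoters of some members that rose are shown as examples, each with at least 2 CCAAT boxes. Sterol-regulated promoters are known to pair SREBP sites with CCAAT boxes, which bind NF-Y. RefSeq promoters of assembly GRCr8, from 250 bases before to 50 bases after the start site, were at hand for 23 of the 28 genes. In the 300 bases below, read 5′ to 3′ on the gene's strand, capitals mark CCAAT or its reverse ATTGG. Msmo1 (chr16:29746863-29747162, plus strand) and Hsd17b7 (chr13:84722705-84723004, minus strand) hold 3 copies each, and Mvd (chr19:67414925-67415224, minus strand) holds 2. Nsdhl (chrX:155817110-155817409, plus strand), a gene with no response in SD rats that passed the test, holds 5.
Msmo1: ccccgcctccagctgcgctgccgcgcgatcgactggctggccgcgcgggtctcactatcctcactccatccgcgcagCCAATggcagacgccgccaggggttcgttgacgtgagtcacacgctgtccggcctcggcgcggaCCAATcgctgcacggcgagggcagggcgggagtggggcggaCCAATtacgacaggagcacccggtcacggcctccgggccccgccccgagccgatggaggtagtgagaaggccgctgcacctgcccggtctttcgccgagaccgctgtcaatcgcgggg
Hsd17b7: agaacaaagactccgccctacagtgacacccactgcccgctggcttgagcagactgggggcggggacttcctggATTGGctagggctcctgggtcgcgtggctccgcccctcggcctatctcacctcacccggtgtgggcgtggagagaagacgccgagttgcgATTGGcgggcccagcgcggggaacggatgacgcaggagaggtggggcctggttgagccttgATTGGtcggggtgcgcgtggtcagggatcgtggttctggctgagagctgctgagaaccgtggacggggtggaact
Mvd: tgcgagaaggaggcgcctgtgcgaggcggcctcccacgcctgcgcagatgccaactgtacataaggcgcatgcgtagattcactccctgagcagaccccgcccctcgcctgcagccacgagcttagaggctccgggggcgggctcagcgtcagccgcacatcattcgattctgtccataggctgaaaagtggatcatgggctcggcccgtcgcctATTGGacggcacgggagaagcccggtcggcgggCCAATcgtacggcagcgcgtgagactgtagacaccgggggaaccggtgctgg
Nsdhl: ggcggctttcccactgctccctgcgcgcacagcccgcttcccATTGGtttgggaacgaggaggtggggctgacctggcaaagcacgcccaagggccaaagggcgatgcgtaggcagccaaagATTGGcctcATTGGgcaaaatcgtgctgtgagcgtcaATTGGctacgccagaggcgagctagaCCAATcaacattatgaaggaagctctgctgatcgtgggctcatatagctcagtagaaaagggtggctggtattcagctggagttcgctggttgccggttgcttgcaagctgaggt

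CCAAT, searched on both strands, was found in 18 of the 23 promoters (78.3%), and in 37.5% of all 33469 promoters of the same length in the table. At least 2 copies were found in 11 of the 23, and in 11.2% of all promoters. The 18 promoters with CCAAT include that of Lbr, which had no probe. Genes whose PB response passed in neither SD rats nor chimeric mice held CCAAT too: Ebp 2 copies, and Ggps1, Srebf2, Insig1 and Insig2 1 each. Acat2, which rose on PB in both, held none. The letters TCACCCCAC, a sterol regulatory element of textbooks, were in 0 of the 23 and in 0.484% of all promoters. The looser form TCACNCCAC was in 0 of the 23 and in 1.12% of all. These letters are a description of a short window and not a test of binding.

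In SD rats, PB raised 13 of the 27 genes and lowered none at an adjusted p under 0.05. The 13 were enzymes spread over the whole path, from Acat2 at its start to Dhcr7 at its end, with rises of 1.38-fold to 2.77-fold. The genes with the largest rises were Sqle (1.47 ± 0.307), Msmo1 (1.38 ± 0.2), Idi1 (1.19 ± 0.268), Acat2 (1.17 ± 0.186) and Mvd (1.11 ± 0.206). The median over the 27 genes was 0.55, against -0.02 over all 17009 genes tested, of which 4.3% were called, 2.5% higher and 1.8% lower. The control and sterol handling genes gave 0 calls among 7.

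In the mevalonate arm, 4 of 5 genes rose. Acat2 encodes a cytosolic thiolase that joins acetyl-CoA units at the entry of the path. It stood at 2.46, 2.24, 2.49 and 2.3 in SD controls 1 to 4 and at 3.58, 2.89, 4.03 and 3.66 in SD rats 1 to 4 on PB (adjusted p = 0.00282). The lowest PB array lay above the highest control. Mvd, the decarboxylase that makes isopentenyl diphosphate, stood at 0.76, 0.44, 1.12 and 0.92 in SD controls and 1.98, 1.35, 2.28 and 2.07 on PB (adjusted p = 0.00811). Its groups did not overlap either, and PB rat 2 was again the lowest of the 4. Pmvk, phosphomevalonate kinase, stood at 2.18, 2.21, 2.05 and 2.12 in controls and 2.58, 2.38, 2.91 and 2.87 on PB, a rise of 0.55 ± 0.118 (adjusted p = 0.0184). Mevalonate kinase, Mvk, rose by 0.49 ± 0.126 (adjusted p = 0.0414), although SD PB 2, at -0.65, lay within the controls. The call for Mvk was lost on leaving out any 1 of 7 of the 8 SD arrays. Hmgcs1, which makes HMG-CoA, differed by 0.88 ± 0.268, short of the threshold (adjusted p = 0.0801).

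In the isoprenoid arm, 2 of 4 genes rose. Dhdds is the catalytic subunit of the enzyme that extends farnesyl diphosphate towards dolichol, the lipid carrier of protein glycosylation. It stood at 2.06, 2.3, 2.24 and 2.39 in SD controls and 2.68, 2.67, 2.8 and 2.71 on PB. The rise of 0.47 ± 0.0693 (adjusted p = 0.00173) was small, and the 4 PB arrays lay close together and above all controls. Idi1, the isomerase of isopentenyl diphosphate, went from 2.21, 2.37, 2.42 and 2.25 in controls to 3.49, 2.76, 4.15 and 3.62 on PB (adjusted p = 0.0233). Its PB arrays were much more spread than its controls. The farnesyl diphosphate synthase gene Fdps stood at 4.72, 4.14, 4.75 and 4.4 in controls and 5.32, 4.78, 5.72 and 5.38 on PB. The groups did not overlap, but the difference of 0.8 ± 0.227 missed the threshold (adjusted p = 0.0627), and its other probe gave 0.82 ± 0.224. Ggps1, which makes geranylgeranyl diphosphate for protein prenylation, stood at -0.13 ± 0.109.

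Of the 3 genes from squalene to lanosterol, 2 rose. Sqle, the squalene epoxidase, stood at 1.75, 2.22, 1.94 and 1.74 in SD controls and 3.33, 2.51, 4.03 and 3.68 on PB (adjusted p = 0.0154). All 4 PB arrays lay above all 4 controls. Fdft1, squalene synthase, stood at 3.42, 3.24, 3.12 and 3.06 in controls and 3.76, 3.49, 4.05 and 3.72 on PB, a rise of 0.54 ± 0.108 (adjusted p = 0.0114). Lss, lanosterol synthase, stood at 2.06, 1.05, 1.26 and 0.55 in controls and 2.58, 1.48, 2.36 and 2.57 on PB. Its controls were widely spread, the groups overlapped, and 1.02 ± 0.313 missed the threshold (adjusted p = 0.0829).

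Of the 8 measured genes from lanosterol to cholesterol, 5 rose. Msmo1, which removes the methyl groups at carbon 4 of the sterol ring, stood at 5.42, 5.53, 5.23 and 5.37 in SD controls and 6.77, 6.15, 7.18 and 6.96 on PB (adjusted p = 0.00158). Cyp51, the lanosterol demethylase, stood at 2.26, 2.19, 2.16 and 2.06 in controls and 3.06, 2.58, 3.68 and 3.28 on PB, a rise of 0.98 ± 0.194 (adjusted p = 0.0114). Hsd17b7, a sterol ketone reductase, went from -0.67, -0.1, -0.31 and -0.35 to 0.53, 0.03, 1.19 and 0.78, a rise of 0.99 ± 0.213 (adjusted p = 0.0183). In each of these genes the groups did not overlap, PB rat 3 was the highest and PB rat 2 the lowest of its group. Sc5d, the desaturase that makes 7-dehydrocholesterol, rose by 0.6 ± 0.137 (adjusted p = 0.0256), and Dhcr7, which reduces it to cholesterol, by 0.73 ± 0.187 (adjusted p = 0.0419). The calls for Sc5d and Dhcr7 were lost on leaving out any 1 of 6 and of 7 of the 8 arrays. Tm7sf2, a sterol reductase, stood at 0.5 ± 0.288, the isomerase Ebp at 0.22 ± 0.106 and the dehydrogenase Nsdhl at 0.05 ± 0.116, with adjusted p of 0.351, 0.262 and 0.866.

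The SREBP2 control genes gave 0 calls among 4. Srebf2 stood at 2.05, 2.08, 2.1 and 1.9 in SD controls and 2.32, 2.14, 2.6 and 2.37 on PB. The groups did not overlap, and the difference of 0.33 ± 0.0968 missed the threshold (adjusted p = 0.0725). Scap stood at 1.5, 1.49, 1.76 and 1.76 in controls and 1.38, 1.19, 1.47 and 1.43 on PB, a difference of -0.26 ± 0.0941 (adjusted p = 0.137) with the PB arrays all lower. Insig2 overlapped, at 3.92, 4.36, 3.59 and 4.03 in controls and 3.81, 4.07, 3.61 and 3.95 on PB. Insig1, itself a known SREBP2 target, stood at 0.07 ± 0.385, with controls spread from 3.12 to 4.56.

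Sterol handling genes gave 0 calls among 3. Stard4, a cytosolic carrier of cholesterol, stood at 1.61, 1.36, 2.38 and 1.69 in controls and 1.95, 2.44, 3.17 and 2.2 on PB, a difference of 0.68 ± 0.26 (adjusted p = 0.158). Its other probe differed by 0.71 ± 0.164 and passed in a test over all probes (adjusted p = 0.0272). Npc1, which exports cholesterol from lysosomes, stood at 3.69, 3.52, 3.57 and 3.71 in controls and 3.24, 3.36, 3.49 and 3.53 on PB. Soat2, which esterifies cholesterol for storage, stood at -0.15, 0.07, -0.02 and 0.1 in controls and -0.04, -0.06, -0.58 and 0.01 on PB. Npc1 and Soat2 differed by -0.22 ± 0.0931 and -0.17 ± 0.134, with overlapping groups.

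**Figure D1:**
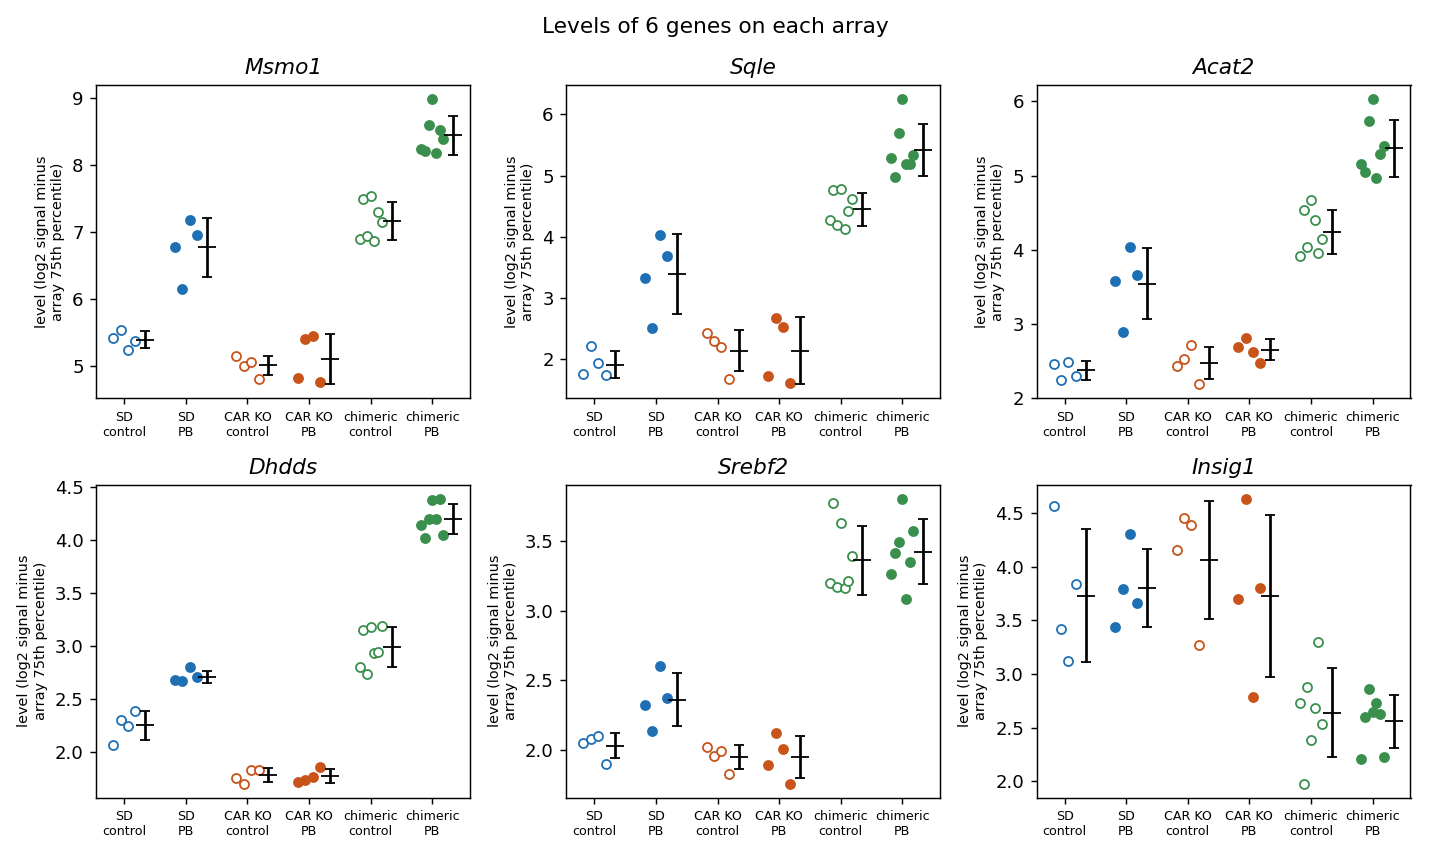
Levels of Msmo1, Sqle, Acat2, Dhdds, Srebf2 and Insig1 on each of 30 arrays (points; open for control diet, filled for PB), in log2 signal minus the array's 75th percentile, with the mean and SD of each group beside the points. In SD rats the PB points of the first 5 genes lie above all control points, in CAR KO rats the diets overlap, and the chimeric levels of all but Insig1 lie above those of the rats on the same diet.

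Groups that did not overlap were counted as a check that needs no model. In 13 of the 27 genes all 4 SD arrays on PB lay above all 4 controls, and in 1, Scap, below. Over all genes tested, 5.9% lay wholly above and 5.75% wholly below. The 13 calls fell to 6 without SD PB 3 and rose to 17 without SD PB 2. The 6 were Acat2, Mvd, Dhdds, Fdft1, Cyp51 and Msmo1. The 4 gained were Hmgcs1, Fdps, Lss and Srebf2. A fit on the 8 SD arrays alone called 2, Dhdds and Msmo1, with the same fold changes.

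SD rats on PB differed among themselves over the whole gene set. SD PB 3 had the highest level of its group in 21 of the 27 genes, and SD PB 2 the lowest in 21. The median deviation from the group mean was 0.33 on SD PB 3 and -0.32 on SD PB 2, where all genes measured on all arrays had medians of 0.02 and 0.01. The SD between the PB arrays had a median of 0.342 over the 27 genes and 0.12 over 12221 genes measured on all arrays. In SD controls these medians were 0.153 and 0.13. Cyp2b2 followed that order only in part: it stood at 6.89, 7.11, 7.35 and 6.56 in SD rats 1 to 4 on PB. SD PB 3 was again the highest, but SD PB 4 and not SD PB 2 was the lowest. In CAR KO rats a smaller spread appeared on both diets. CAR KO control 4 was the lowest of its group in 20 genes, and CAR KO PB 4 the lowest of its group in 20. The median SD over the 27 genes was 0.188 in CAR KO controls and 0.191 on PB. Over genes measured on all arrays it was 0.117 and 0.113.

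**Figure D2:**
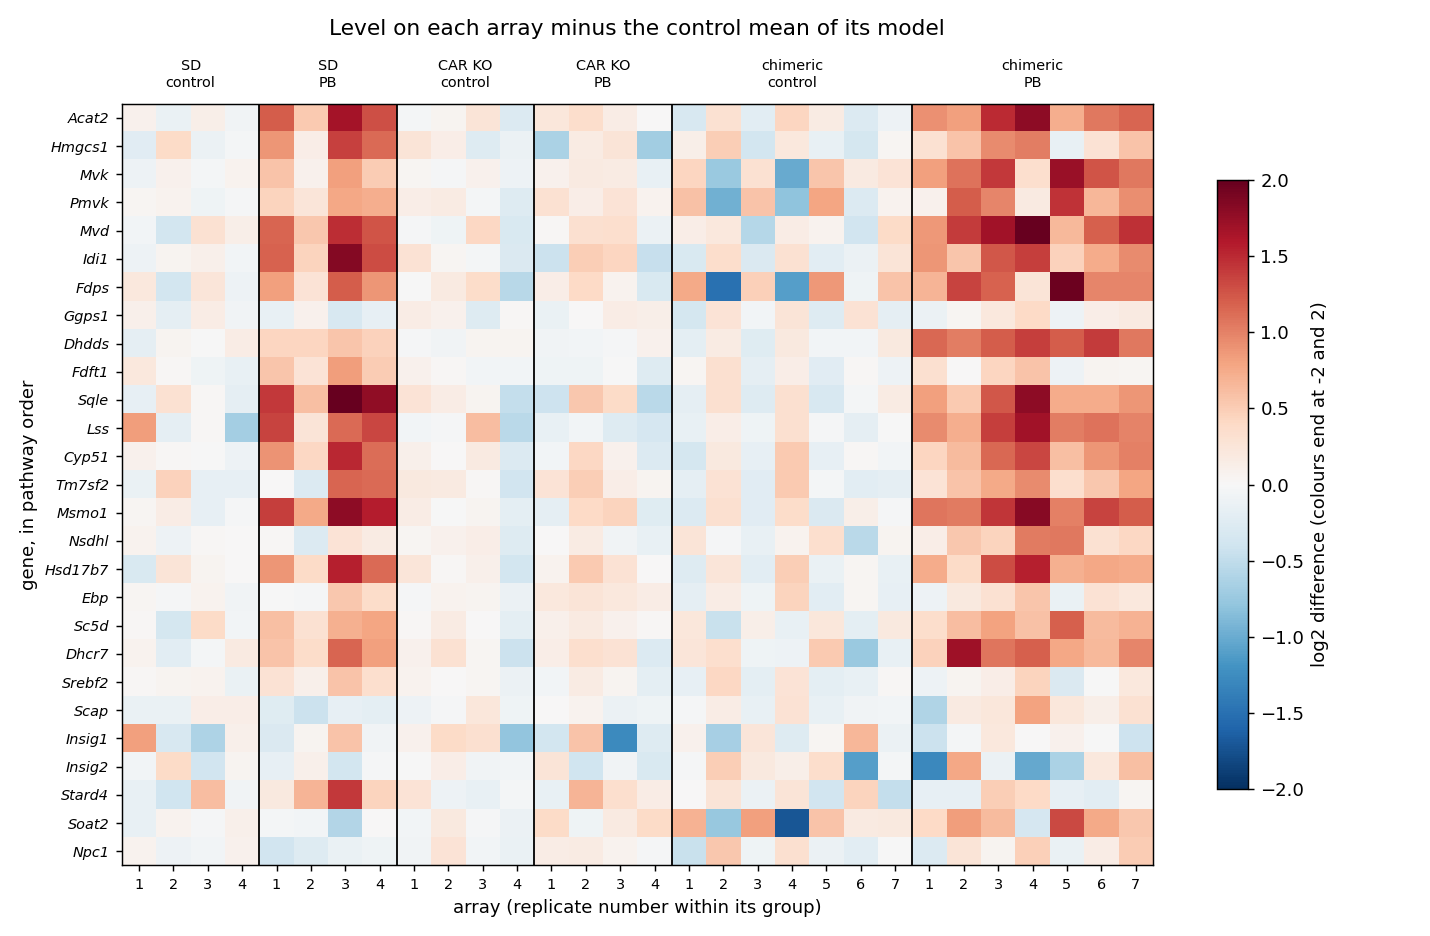
Level of each of 27 genes (rows, in pathway order) on each of 30 arrays (columns, by group and replicate number) minus the control mean of the same model, as log2 differences in colour. Most enzymes, but not Ggps1, Nsdhl or Ebp, are red on SD PB 1, 3 and 4 and paler on SD PB 2; colours are near white in CAR KO rats on PB, and red in chimeric mice on PB except for genes such as Ggps1, Ebp and Srebf2.

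In CAR KO rats, PB raised 0 and lowered 0 of the 27 genes by limma, where 0.205% of all 17551 genes tested were called (0.0513% higher and 0.154% lower). At an unadjusted p under 0.05 it was also 0 of the 27, and 16.3% of all genes. The differences ran from -0.34 (Insig1) to 0.26 (Stard4), with a median of 0.07 against -0.02 over all genes. Msmo1 stood at 5.15, 5, 5.05 and 4.81 in CAR KO controls and 4.82, 5.4, 5.45 and 4.76 on PB. Its difference was 0.1 ± 0.201, with a 95% interval of -0.33 to 0.53. The rise of Msmo1 in SD rats was 1.38, with a 95% interval of 0.95 to 1.81. The direct test of the difference between these responses, given below, did not pass for Msmo1. Sqle stood at 2.42, 2.29, 2.19 and 1.67 in controls and 1.73, 2.68, 2.53 and 1.61 on PB, with a 95% interval of -0.66 to 0.66. Acat2 stood at 2.43, 2.52, 2.72 and 2.19 in controls and 2.69, 2.81, 2.62 and 2.47 on PB (95% interval -0.22 to 0.58). For Msmo1, Sqle and Acat2 the diets overlapped. Ebp was the single gene whose CAR KO groups did not overlap (0.2 ± 0.106, higher on PB), as for 3.7% of all genes in that direction.

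Differences of the PB response between CAR KO and SD rats were tested directly. A row effect shared by both slides cancels in them. At an adjusted p under 0.05, 1 of the 27 genes passed, where 0.533% of all 17812 genes were called (0.107% higher and 0.427% lower). That gene was Dhdds, with a response lower in CAR KO than in SD rats by -0.48 ± 0.0984 (adjusted p = 0.0467). Dhdds stood at 1.75, 1.7, 1.83 and 1.83 in CAR KO controls and 1.71, 1.73, 1.76 and 1.86 on PB. The call is at the edge of the threshold: it was lost on leaving out any 1 of 14 of the 16 rat arrays, and with median centring, quantile normalization, no filter, all 30 arrays in 1 fit and the replicate block.

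Several other enzymes had larger differences with larger errors, and none of them passed, while Mvk (-0.42), Pmvk (-0.35), Tm7sf2 (-0.27), Nsdhl (-0.06), Ebp (-0.02) and Ggps1 (0.17) had smaller ones. Sqle differed by -1.48 ± 0.436 (adjusted p = 0.166), Msmo1 by -1.28 ± 0.284 (adjusted p = 0.0667), Lss by -1.22 ± 0.444 (adjusted p = 0.263) and Idi1 by -1.18 ± 0.38 (adjusted p = 0.199). Fdft1 differed by -0.66 ± 0.153 (adjusted p = 0.0808). An unadjusted p under 0.05 was found for 17 of the 27 genes, and for 13.2% of all genes. The median was -0.48, against -0.01 over all genes. Without SD PB 2, Acat2 (-1.2), Msmo1 (-1.48) and Fdft1 (-0.74) passed, with adjusted p of 0.0148, 0.0148 and 0.0394, and Dhdds did not.

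**Figure D3:**
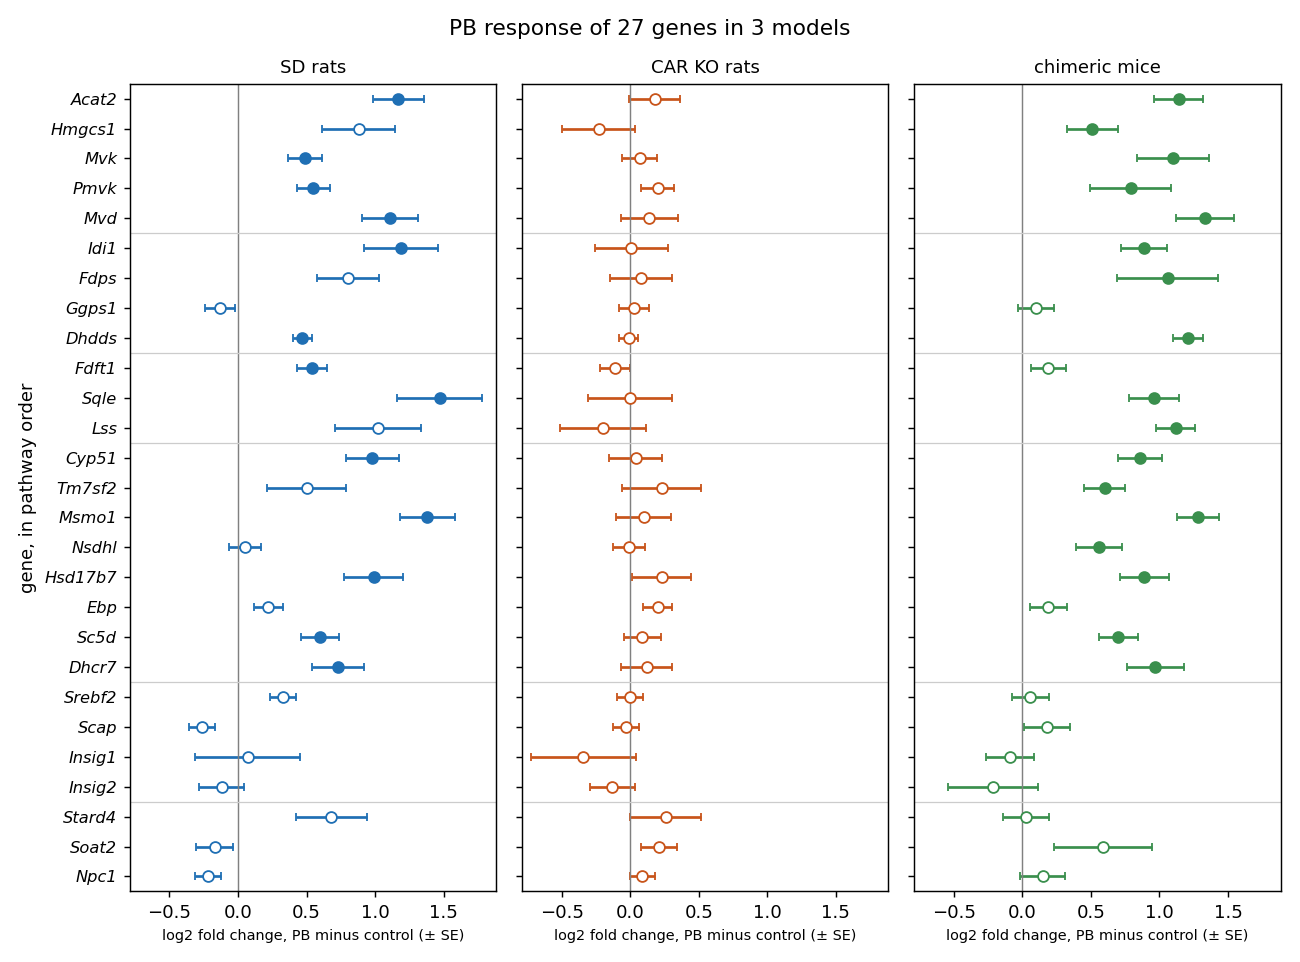
PB response of 27 genes, in pathway order, in SD rats, CAR KO rats and chimeric mice, as log2 fold change on PB against control diet with its SE; filled points passed limma's test at an adjusted p under 0.05. Filled points number 13 in SD rats, 0 in CAR KO rats and 17 in chimeric mice, and none lies below 0.

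In chimeric mice, PB raised 17 of the 27 genes and lowered none. The rises were 1.42-fold to 2.52-fold, in enzymes of each arm of the path, and the median was 0.7 against 0.06 over all 14445 genes tested. The background was high here: 42.7% of all genes were called, 19.3% higher and 23.4% lower. Groups did not overlap in 8 of the 27 genes, each higher on PB, and in 4.98% of all genes in that direction. Without chimeric control 2, chimeric control 4 and chimeric PB 4, 15 genes rose; Pmvk and Nsdhl did not pass.

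Dhdds had the smallest p. It ran from 2.74 to 3.19 in the 7 chimeric controls (median 2.94) and from 4.02 to 4.39 in the 7 chimeric mice on PB (median 4.2), a rise of 1.21 ± 0.107 (adjusted p = 1.99e-06). The ranges are far apart. In the mevalonate arm all 5 genes rose. Mvd ran from 0.95 to 1.9 in controls (median 1.65) and from 2.17 to 3.58 on PB (median 2.92), a rise of 1.33 ± 0.211. Acat2 ran from 3.92 to 4.67 (median 4.14) and from 4.97 to 6.03 (median 5.29), a rise of 1.14 ± 0.178. Both genes had ranges that did not meet.

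Mvk, Pmvk and Hmgcs1 had overlapping ranges. Mvk ran from -2.18 to -0.61 in controls (median -0.9) and from -0.83 to 0.55 on PB (median -0.08), a rise of 1.1 ± 0.263 (adjusted p = 0.00353). Pmvk ran from 0.4 to 2.15 in controls (median 1.43) and from 1.45 to 2.81 on PB (median 2.28), a rise of 0.79 ± 0.298 (adjusted p = 0.0441). Hmgcs1 ran from 6.9 to 7.76 (median 7.31) and from 7.12 to 8.29 (median 7.83), a rise of 0.51 ± 0.186 (adjusted p = 0.0379). The calls for Pmvk and Hmgcs1 were lost on leaving out any 1 of 9 and of 8 of the 14 chimeric arrays.

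In the isoprenoid arm, Idi1 and Fdps rose along with Dhdds. Idi1 ran from 4.45 to 5.11 in controls (median 4.65) and from 5.22 to 6.15 on PB (median 5.65), a rise of 0.89 ± 0.168 (adjusted p = 0.000655). Fdps ran from 2.12 to 4.47 in controls (median 4.08) and from 3.86 to 5.57 on PB (median 4.59), a rise of 1.06 ± 0.371 (adjusted p = 0.0313). Its other probe also rose by 1.06, with a smaller error of 0.137. Ggps1 stood at 0.1 ± 0.131.

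The probes of Fdps, Mvk, Pmvk and Soat2 had low levels on chimeric controls 2 and 4, where most genes were high. Over the 9 members measured with probes of the A_44 name series, the median deviation was -0.66 on chimeric control 2, -0.25 on chimeric control 4 and -0.6 on chimeric PB 4. All 3467 genes with A_44 probes had medians of 0.1, 0.12 and 0.16 there, above their group means. These were lower than in the other series, such as 0.19, 0.21 and 0.22 for 6705 genes with A_64 probes. Over the 12 members with A_64 probes the median deviation was 0.31, 0.31 and 0.44. The part of the probe series in the members' low levels was not tested. The part of this in the rises of Fdps, Mvk and Pmvk was measured by leaving out those arrays with chimeric PB 4: Mvk then rose by 0.88 ± 0.152 and Fdps by 0.67 ± 0.228, and Pmvk did not pass.

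From squalene to cholesterol, 9 of 11 genes rose. Lss ran from 3.09 to 3.59 in controls (median 3.24) and from 3.99 to 4.95 on PB (median 4.29), a rise of 1.12 ± 0.141 (adjusted p = 4.04e-05). Sqle ran from 4.13 to 4.78 (median 4.42) and from 4.97 to 6.25 (median 5.28), a rise of 0.96 ± 0.185 (adjusted p = 0.000749). Fdft1, which rose in SD rats, stood at 0.19 ± 0.127 here (95% interval -0.08 to 0.46). Msmo1 ran from 6.87 to 7.54 (median 7.14) and from 8.17 to 8.98 (median 8.38), a rise of 1.28 ± 0.152 (adjusted p = 2.8e-05). The ranges of Lss, Sqle and Msmo1 did not meet.

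The other enzymes after lanosterol rose as well. Cyp51 ran from 3.9 to 4.77 in controls (median 4.2) and from 4.68 to 5.58 on PB (median 5.13), a rise of 0.86 ± 0.162. Hsd17b7 ran from 1.12 to 1.87 (median 1.25) and from 1.76 to 2.94 (median 2.13), a rise of 0.89 ± 0.178. For Cyp51 and Hsd17b7 the ranges overlapped at their edges. Sc5d ran from 2.03 to 2.7 (median 2.59) and from 2.82 to 3.66 (median 3.1), a rise of 0.7 ± 0.143 with no overlap. Dhcr7 ran from 2.44 to 3.7 (median 3.1) and from 3.65 to 4.88 (median 4.16), a rise of 0.97 ± 0.207. Dhcr7 acts last in the path. Tm7sf2 ran from 5.46 to 6.21 (median 5.51) and from 5.96 to 6.63 (median 6.25), a rise of 0.6 ± 0.147. Nsdhl ran from 1.1 to 1.98 (median 1.69) and from 1.77 to 2.69 (median 2.08), a rise of 0.56 ± 0.17 (adjusted p = 0.0147). Ebp stood at 0.19 ± 0.134. The control and handling genes gave 0 calls among 7, from -0.21 ± 0.328 (Insig2) to 0.59 ± 0.358 (Soat2), with Srebf2 at 0.06 ± 0.135.

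The chimeric response lay almost wholly between slides. With the slide as a block, which leaves chimeric PB 1 against the 7 controls of its slide, 1 of the 27 genes passed, Dhdds (1.15 ± 0.21, adjusted p = 0.0147), and the median was 0.35. In that fit the PB arm is in effect 1 array, whose spread is taken from the other chimeric arrays. On chimeric PB 1 itself, 19 of the 27 genes were above the control mean, against 45.9% of all genes. In 10 it lay above all 7 controls: Acat2, Mvk, Mvd, Idi1, Dhdds, Sqle, Lss, Msmo1, Hsd17b7 and Sc5d, against 12.6% of all genes. The excess over the control mean on that array was 1.08 for Msmo1 and 0.1 for Pmvk. Its median was 0.35, against 0.76 on chimeric PB 2 to 7, so the size of the rise and the slide cannot be told apart for most of these genes. Marker RNA of other liver cells also differed between the diets in chimeric mice, again mostly between slides. The summed level of 8 macrophage markers was 40.7 to 55.1 in controls and 25.2 to 45.6 on PB. These ranges overlap, and Marco was measured on no array. The part of these cells in the members' responses was not tested. The summed level of 8 hepatocyte markers was 3510 to 4050 in controls and 2790 to 3830 on PB. Of the markers tested, 4 of 6 macrophage, 3 of 6 stellate, 2 of 2 lymphoid, 1 of 3 endothelial and 2 of 8 hepatocyte genes were lower on PB in chimeric mice, where 23.4% of all genes were called lower. The stellate gene Col3a1, the cholangiocyte gene Epcam and the erythroid gene Hba-a1 were higher. For the PB response of either rat model, no gene of the marker lists was called.

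Of the 18 genes that rose in SD rats or chimeric mice, all were enzymes, out of 20 measured, and 12 rose in both models. Over all genes tested, 2.5% rose in SD rats and 19.3% in chimeric mice. The share of all genes that rose in both was not counted. Fdft1 rose in SD rats and not in chimeric mice, and Hmgcs1, Fdps, Lss, Tm7sf2 and Nsdhl the reverse. These are counts of calls. The test of the difference itself, chimeric minus SD, passed for 1 of the 27 genes, where 18.9% of all 17255 genes were called (6.29% higher and 12.6% lower). Dhdds rose more in chimeric mice, by 0.74 ± 0.134 (adjusted p = 0.000535), and its difference did not pass with the slide as a block. For Fdft1 the difference was -0.36 ± 0.176 (adjusted p = 0.165), for Nsdhl 0.52 ± 0.228 (adjusted p = 0.118) and for Msmo1 -0.1 ± 0.256 (95% interval -0.63 to 0.42). The median over the 27 genes was 0.1, against 0.08 over all genes.

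On control diet, CAR KO rats differed from SD rats in 5 of the 27 genes, where 34.1% of all 17724 genes were called (14.4% higher and 19.7% lower). Each rat model lay on its own slide, so strain and slide cannot be told apart. Fdft1 was higher in CAR KO rats by 0.48 ± 0.108 (adjusted p = 0.00347), at 3.78, 3.72, 3.63 and 3.64 against 3.42, 3.24, 3.12 and 3.06 in SD controls. Dhdds was lower by -0.47 ± 0.0696 (adjusted p = 0.000166), and its groups did not overlap. Soat2 stood at -0.61, -0.36, -0.58 and -0.67, lower by -0.55 ± 0.134 (adjusted p = 0.00578). Mvk was lower by -0.4 ± 0.126 (adjusted p = 0.0258), at -1.08, -1.15, -1.04 and -1.23 against -0.84, -0.65, -0.77 and -0.67. Nsdhl was lower by -0.33 ± 0.116 (adjusted p = 0.0429), at 2.24, 2.29, 2.34 and 1.94 against 2.6, 2.43, 2.56 and 2.53. For both genes the models did not overlap. The calls for Mvk and Nsdhl were lost on leaving out any 1 of 4 and of 6 of the 8 control arrays. The median over the 27 genes was -0.05, against -0.08 over all genes. Among markers, 4 of 8 hepatocyte, 2 of 8 macrophage and 2 of 7 stellate genes were lower in CAR KO rats. So was 1 of 4 cholangiocyte genes (Spp1, -1.89 ± 0.546), where 19.7% of all genes were called lower. The lymphoid gene Cd3d was higher (0.37 ± 0.114). The part of these cells in the differences was not tested.

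Chimeric livers on control diet differed from SD livers in 23 of the 27 genes, 18 higher and 5 lower. Of all 17160 genes 74.6% were called, 38.7% higher and 35.9% lower. Sqle (2.54 ± 0.252), Idi1 (2.45 ± 0.223), Tm7sf2 (2.41 ± 0.222), Cyp51 (2.08 ± 0.184) and Lss (2.03 ± 0.232) were higher by at least 4.09-fold. Srebf2 was higher by 1.33 ± 0.127, and Dhdds by 0.75 ± 0.0944. Insig1 was lower by -1.09 ± 0.289, Soat2 by -1.18 ± 0.324, Nsdhl by -0.89 ± 0.161 and Pmvk by -0.78 ± 0.27. Fdps was lower by -0.9 ± 0.355 with the probe used, and its other probe stood at 0.22 ± 0.183. The remaining enzymes that were higher were Acat2 (1.86 ± 0.193), Msmo1 (1.78 ± 0.181), Hsd17b7 (1.74 ± 0.204), Ebp (1.6 ± 0.129), Fdft1 (1.48 ± 0.124), Hmgcs1 (1.02 ± 0.234), Mvd (0.7 ± 0.224) and Ggps1 (0.49 ± 0.128). Npc1 (1.07 ± 0.15) and Scap (0.7 ± 0.152) were higher too. Adjusted p ran from 3.1e-11 (Ebp) to 0.025 (Fdps). Without the 3 uneven chimeric arrays, Pmvk (-0.43, adjusted p = 0.069) and Fdps (-0.38, adjusted p = 0.16) did not pass. Stard4 was higher by 1.7 ± 0.218, and its other probe stood at -0.05 ± 0.231. The median was 1.02 over the 27 genes and 0.04 over all genes, and median centring moved these to 1.42 and 0.44. In 20 of the 27 genes, chimeric mice on PB had the highest mean of the 6 groups. The share over all genes was not counted, so this does not set the members apart. The livers of chimeric mice lay on slides of their own and hold mouse cells too, so host, slide and rat cell state cannot be told apart. Summed macrophage markers were 40.7 to 55.1 in chimeric controls and 88.9 to 103 in SD controls, with 7 of 8 genes lower. Stellate and fibroblast markers summed to 3.43 to 5.07 and 11.4 to 15.7, endothelial markers to 16.6 to 25.1 and 25.7 to 29.5, and lymphoid markers to 0.591 to 0.793 and 1.31 to 1.84. Cholangiocyte markers summed to 1.69 to 3.15 and 0.754 to 1.48, with Krt19 measured on no chimeric array. Some of these sums join genes that went opposite ways. Among 4 cholangiocyte genes, Spp1 (4.1 ± 0.405) and Krt7 (0.94 ± 0.224) were higher. Krt19 (-4.25 ± 0.338) and Epcam (-1.86 ± 0.213) were lower. Among 7 stellate and fibroblast genes 5 were lower, while Dcn (1.37 ± 0.21) and Col1a1 (0.78 ± 0.111) were higher. The part of these cells in the differences was not tested.

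**Figure D4:**
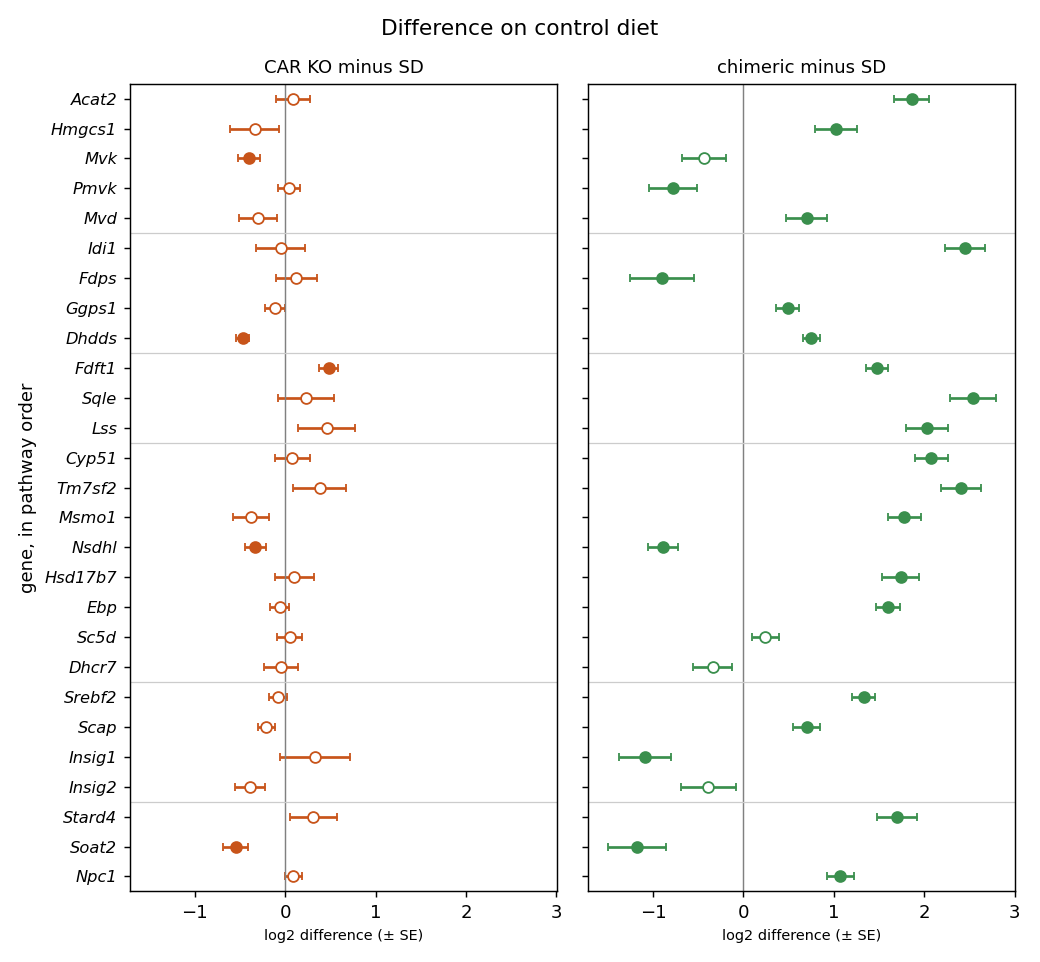
Difference on control diet of 27 genes, in pathway order, between CAR KO and SD rats and between chimeric mice and SD rats, as log2 difference with its SE; filled points passed limma's test at an adjusted p under 0.05. CAR KO points lie between -0.55 and 0.48, and chimeric points between -1.18 and 2.54.

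Other genes of sterol metabolism were followed in 5 lists, of which 4 of 37 tested genes were called in SD rats, against 4.3% of all genes. Among 12 genes of sterol uptake, storage and transport, 11 were tested and 2 rose on PB. Tmem97, a sterol-responsive membrane protein that binds Npc1, stood at 1.67, 1.47, 1.69 and 1.76 in SD controls and 2.34, 2.49, 2.83 and 2.37 on PB, a rise of 0.86 ± 0.115 (adjusted p = 0.000891). Tmem97 also passed the test of the difference between rat models (-0.81 ± 0.164, CAR KO minus SD, adjusted p = 0.0431). The cholesterol ester hydrolase Nceh1 rose by 0.87 ± 0.231 (adjusted p = 0.0489). Of 6 tested genes of SREBP processing and turnover, the ubiquitin ligase Rnf139 rose by 0.22 ± 0.0527 and Erlin2 fell by 0.39 on the log2 scale. LXR and its targets (7 tested), isoprenoid users (9 tested) and cholesterol oxidation genes (4 tested) gave 0 calls. In CAR KO rats these 5 lists gave 0 calls, where only 0.205% of all genes were called, so the count does not set the lists apart.

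The chimeric responses of these lists also lay almost wholly between slides, as only chimeric PB 1 shared the controls' slide. PB and slide cannot be told apart in their size or in their differences from SD rats. In chimeric mice, 6 of 9 tested isoprenoid users rose on PB, where 19.3% of all genes were called higher. They included Srd5a3 (1.09 ± 0.169) and Dolk (0.71 ± 0.12), which act after Dhdds in dolichol synthesis, and Nus1 (0.36 ± 0.138), the partner subunit of Dhdds. Fntb (0.91 ± 0.134), a subunit of protein farnesyltransferase, Pdss2 (0.46 ± 0.161) and Icmt (0.36 ± 0.11) made up the 6. The rise exceeded that in SD rats for Srd5a3 by 0.86 ± 0.219 and for Dolk by 0.67 ± 0.149 (adjusted p = 0.00668 and 0.00233). The other differences from SD rats that passed were Osbp (0.84 ± 0.229), Icmt (0.51 ± 0.141), Faf2 (0.47 ± 0.162), Scarb1 (-0.64 ± 0.189) and Mylip (-0.97 ± 0.23). Nceh1 rose by 1.67 ± 0.322 and Tmem97 by 0.74 ± 0.122, as did Osbp (0.7 ± 0.161), the lysosomal lipase gene Lipa (0.52 ± 0.169) and Gramd1c (0.39 ± 0.11), while the HDL receptor gene Scarb1 fell by 0.84, with 10 tested. Of 4 genes of SREBP processing and turnover, Rnf139 (0.45 ± 0.157) and Faf2 (0.43 ± 0.133) rose. Cholesterol oxidation genes gave 0 calls among 3. Of the LXR genes, Mylip, a ubiquitin ligase induced by LXR, fell by 1.18 and the sterol exporter Abcg1 by 0.82, with 7 tested.

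On control diet, 14 of 37 tested genes of these lists differed between CAR KO and SD rats, a share near the 34.1% of all genes called, so the lists do not stand apart by their count. Of the isoprenoid users, 4 of 9 were lower in CAR KO rats: Fntb (-1.04 ± 0.342), Pggt1b (-0.71 ± 0.0973), Dolk (-0.4 ± 0.0665) and Fnta (-0.25 ± 0.0603), and none was higher. Nus1 stood at 0.03 ± 0.114. Of SREBP processing genes, the protease gene Mbtps2 was higher (0.57 ± 0.153), and Erlin2 (-0.38 ± 0.0984), Mbtps1 (-0.19 ± 0.064) and Faf2 (-0.16 ± 0.0548) were lower. Scarb1 (0.58 ± 0.141) and the sterol exporter gene Abca1 (0.48 ± 0.152) were higher. Cyp27a1, a sterol hydroxylase (-0.74 ± 0.0968), Gramd1a (-0.69 ± 0.0659), Osbp (-0.51 ± 0.138) and Nr1h2 (-0.2 ± 0.0651) were lower.

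Chimeric controls differed from SD controls in 27 of the 37, with 10 higher and 17 lower, a share near the 74.6% of all genes called. The largest excess was in Cyp7b1, an oxysterol hydroxylase (3.5 ± 0.357), followed by Nceh1 (2.14 ± 0.318), Scarb1 (1.71 ± 0.134) and Mylip (1.32 ± 0.163). Faf2 (0.91), Coq2 (0.69), Nus1 (0.68), Rnf139 (0.54), Erlin1 (0.51) and Stard3 (0.43) were also higher. The lowest were Stard5, a sterol carrier (-2.28 ± 0.311), Ch25h (-1.93 ± 0.231), Gramd1c (-1.45 ± 0.117), Abca1 (-1.44 ± 0.135) and Mbtps2 (-1.4 ± 0.202). Cyp27a1 (-1.36), Lpcat3 (-1.33), Gramd1b (-1.27), Erlin2 (-1.15), Npc2 (-0.91), Pggt1b (-0.87), Gramd1a (-0.76), Pdss2 (-0.68), Abcg1 (-0.6), Nr1h2 (-0.46), Srd5a3 (-0.45) and Fnta (-0.42) were lower too.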

How the data were processed

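Liver RNA (100 ng per array, Cy3, per the labels' protocols) was read on 1-colour Agilent rat arrays. The deposited intensity values are processed signals of Feature Extraction 10.7.3.1, background-subtracted by the scanner software, per the file headers. The authors' deposited series matrix holds log2 values that correlate at 1 with log2 of these signals on each array; its column medians run from -4.2 to -3.36, its centring is not stated, and as an alternative it gave the same counts of called members in all 7 comparisons.

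Control spots (4259 of 62976) and outlier spots were left out, spots of a probe were averaged, and the array's 75th percentile was subtracted after log2. Probes were named by transcript accession through RefSeq (GRCr8, names only): 18004 of 30367 probes matched. The brightest probe, by mean level on the 16 rat arrays, stood for its gene, leaving 26912 genes or transcripts without a symbol. Testing required a signal well above background on 75% of the arrays in at least 1 compared group. Tests used limma 3.58.1 (lmFit, eBayes) in R 4.3.3, on 16 rat, 14 chimeric or all 30 arrays, and were tested on simulated data. SDs and SEs rest on the number of arrays, which limits the precision. Labels call the arrays biological replicates.

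Each member that passed a test is named with its values. Per-array values are given for the 3 members of smallest p in SD rats in each role group, for Dhdds and for members that passed between rat models; groups of 7 are given by range and median, and the chimeric against SD calls by their differences. The members and lists were chosen with earlier results of these data known. Alternatives were other centring, background correction, filters, probe choice, fits and blocks, and each array left out.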

Additional observations from a re-analysis of the deposited data

Results flagged for a closer look

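In 4 groups of arrays, 1 array stood apart from the rest by Dixon's ratio; 162 such groups were examined, and chance alone gives about 1 in 20. Tm7sf2 stood at 3.73 on SD control 2, and the other 3 controls lay at 3.1 to 3.14. Soat2 stood at -0.58 on SD PB 3, below -0.06 to 0.01 on the others. Npc1 stood at 3.98 on CAR KO control 2, above 3.58 to 3.65. Insig2 stood at 2.49 on chimeric control 6, below 3.54 to 4.08.

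The PB response of Dhdds differed between models by the test of the difference. It was lower in CAR KO than in SD rats by -0.48 ± 0.0984 and higher in chimeric mice than in SD rats by 0.74 ± 0.134 (limma adjusted p = 0.0467 and 0.000535). The first call was lost on leaving out any 1 of 14 of the 16 rat arrays. In the second, only chimeric PB 1 shared the slide of the chimeric controls.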

How the results depend on the processing

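No result of the 27 genes that passed a test changed its direction under an alternative and stayed past the threshold. The 13 calls in SD rats became 17 with no filter on dim probes, 2 on the SD arrays alone, 8 with all 30 arrays in 1 fit and 8 with the replicate block (7 of them among the 13), and 6 to 17 with each array left out. The 0 calls in CAR KO rats stayed at 0 throughout. The 17 calls in chimeric mice became 20 with median centring, 15 with quantile normalization (without Pmvk and Fdps), 14 with no filter (without Hmgcs1, Pmvk and Fdps), 1 with the slide as a block and 1 with slide and slide row as blocks (added after seeing the layout), and 14 to 17 with each array left out. For CAR KO minus SD the 1 call became 0 with median centring, quantile normalization, no filter, all 30 arrays in 1 fit or the replicate block, and 0 to 3 with each array left out. For chimeric minus SD the 1 call became 3 with median centring (Dhdds, Mvk and Nsdhl), 2 with quantile normalization (Dhdds, and Fdft1 lower), 0 with the slide as a block and 2 without the 3 uneven chimeric arrays (chosen after seeing the data; Dhdds and Npc1). It was 1 to 3 with each array left out, with 3 without chimeric PB 1. On control diet, CAR KO against SD had 5 calls, 2 with all 30 arrays in 1 fit and 3 to 6 with each array left out; chimeric against SD had 23, and 22 to 24. A slide or replicate block could not be fitted for the control diet comparisons. A shorter motif added after the search, CACNCCAC, was in 3 promoters (Acat2, Ebp and Insig1; 5.8% of all promoters) where TCACCCCAC was in 0. Same-numbered animals did not all deviate together (r of -0.118 to 0.0654 in SD, -0.21 to 0.093 in CAR KO and -0.234 to 0.811 in chimeric groups, where numbers 4 to 7 had r of 0.811, 0.534, 0.318 and 0.253), so the numbers are not taken as pairs. Single genes kept their side of the threshold in 2112 of the values under alternatives other than left-out arrays, lost it in 82 and gained it in 20. The replicate block left 17 calls in chimeric mice and 1 for chimeric minus SD. All 30 probes were above background on every array.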
